A study of Mus musculus with 14 samples.

Results

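The core circadian clock genes are the 10 genes whose proteins form the transcriptional feedback loop of the cellular clock: Arntl (also written Bmal1), Clock, Npas2, Per1, Per2, Per3, Cry1, Cry2, Nr1d1 and Nr1d2. They were chosen by symbol, matched through their Ensembl identifiers, and all 10 were found among the 55471 genes of the count table. All 10 had enough counts to enter the test of 15949 genes. RNA was sequenced from brown adipose tissue (BAT), the fat depot that burns lipid to make heat, of male mice 10 weeks old. The mice were wild type (WT) or lacked CLSTN3B in adipocytes (AdC3KO), and all were first kept for 2 weeks at 30 °C, where little heat production is needed. WT and AdC3KO mice at 30 °C gave 3 libraries each. WT and AdC3KO mice that were then exposed to 4 °C for 6 h gave 4 libraries each. Neither the driver that restricts the knockout to adipocytes nor the hour of tissue collection is given by the sources used here, so an effect of temperature on the clock genes and an effect of the hour of collection cannot be told apart.

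In the clock's feedback loop, the proteins of Arntl and of Clock or its relative Npas2 pair and activate genes through short DNA elements called E-boxes. Among their targets are the Per and Cry genes, whose proteins return to the nucleus and repress that pair, and Nr1d1 and Nr1d2, whose proteins (REV-ERBα and REV-ERBβ) are nuclear receptors that repress Arntl. The Per genes also respond to hormones, cyclic AMP and temperature, and in brown fat Nr1d1 is known as a repressor of the heat-producing program.

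Each library held 19.9 M to 29.0 M gene counts (M is 1000000). Clstn3, the locus targeted in AdC3KO, ranged from 14.8 to 17.3 counts per M (CPM) in AdC3KO and from 181.8 to 227.7 CPM in WT at 30 °C, and from 53.9 to 77.9 CPM in AdC3KO and 970.0 to 1195 CPM in WT at 4 °C. All 11 brown adipocyte markers had counts in every group, with sums of 9961 to 13320 CPM at 30 °C and 26980 to 37760 CPM at 4 °C. Single markers of this list went both ways, so the sums do not describe each of them. Skeletal muscle markers summed to 34.2 to 494.1 CPM in 5 libraries (WT library 3 and AdC3KO libraries 1 and 2 at 30 °C, WT library 2 and AdC3KO library 3 at 4 °C) and to at most 3.65 CPM in the other 9. Interferon response genes summed to 1175 CPM in WT library 4 and 375.5 CPM in AdC3KO library 1 at 4 °C, and to 78.0 to 199.1 CPM in the other 12. Whether the libraries of a group come from separate animals is not stated, and p-values then measure only the spread between libraries, which may be technical.

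Short windows around the start sites were read for DNA elements of the clock and of cyclic AMP signals, beside genes that moved in opposite directions. Elements further from the start sites or within the genes were not searched. RefSeq windows of 300 bases (250 before to 50 after the start, GRCm38.p6) matched 9 of the 10 genes with 13 start sites, and Per2 had no entry. They were searched on both strands for the E-box CACGTG, its variant CACGTT, the cyclic AMP response element TGACGTCA and its shorter form TGACG (every full element also holds the shorter form), the receptor element AGGTCA used by the REV-ERB and ROR receptors, and the D-box forms TTATGTAA and TTACGTAA. The 250 bases before 1 start site are given for both Cry genes, both Nr1d genes, Per1 and Per3, 5′ to 3′ on the gene's strand, with matches in capitals.
Per1 (chr11:69098699-69098948, plus strand): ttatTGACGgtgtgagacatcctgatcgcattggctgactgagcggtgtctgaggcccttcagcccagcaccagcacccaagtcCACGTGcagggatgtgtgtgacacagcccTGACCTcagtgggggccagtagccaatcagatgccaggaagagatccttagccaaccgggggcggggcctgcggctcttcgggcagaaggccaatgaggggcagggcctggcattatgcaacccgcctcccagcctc
Per3 (chr4:151044666-151044915, minus strand): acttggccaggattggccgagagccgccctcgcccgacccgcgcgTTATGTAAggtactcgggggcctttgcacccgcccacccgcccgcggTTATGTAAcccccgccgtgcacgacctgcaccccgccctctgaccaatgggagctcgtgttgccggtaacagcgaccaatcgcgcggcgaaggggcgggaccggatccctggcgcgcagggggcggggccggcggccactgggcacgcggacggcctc
Cry1 (chr10:85185055-85185304, minus strand): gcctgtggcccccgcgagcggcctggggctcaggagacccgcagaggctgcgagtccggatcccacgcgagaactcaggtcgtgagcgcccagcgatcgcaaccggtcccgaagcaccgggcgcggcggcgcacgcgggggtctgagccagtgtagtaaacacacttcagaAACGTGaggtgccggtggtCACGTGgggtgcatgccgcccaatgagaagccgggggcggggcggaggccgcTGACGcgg
Cry2 (chr2:92434070-92434319, minus strand): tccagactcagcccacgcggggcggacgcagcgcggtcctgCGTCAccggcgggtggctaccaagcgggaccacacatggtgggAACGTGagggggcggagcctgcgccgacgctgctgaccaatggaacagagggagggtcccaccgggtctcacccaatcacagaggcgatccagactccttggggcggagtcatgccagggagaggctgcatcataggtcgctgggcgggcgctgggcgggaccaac
Nr1d1 (chr11:98775378-98775627, minus strand): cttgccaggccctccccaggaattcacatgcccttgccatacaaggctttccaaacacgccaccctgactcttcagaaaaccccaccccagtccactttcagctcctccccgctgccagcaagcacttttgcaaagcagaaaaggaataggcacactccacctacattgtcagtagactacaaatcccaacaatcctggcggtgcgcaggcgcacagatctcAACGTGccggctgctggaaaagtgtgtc
Nr1d2 (chr14:18239107-18239356, minus strand): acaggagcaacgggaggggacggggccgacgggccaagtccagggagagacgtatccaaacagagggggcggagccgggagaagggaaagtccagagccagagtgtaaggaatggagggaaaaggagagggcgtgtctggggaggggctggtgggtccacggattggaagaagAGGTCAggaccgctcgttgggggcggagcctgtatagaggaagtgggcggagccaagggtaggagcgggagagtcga

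The E-box CACGTG was present upstream of Per1 (position −166 from the start) and Cry1 (−60), which is 2 of 13 clock gene windows against 7.149% of 32817 windows of all genes. Its variant CACGTT was found upstream of Cry1 (−79), Cry2 (−166) and Nr1d1 (−28), against 4.687% of all windows. Per3 alone among the 13 windows carried the D-box form TTATGTAA, and it did so at −205 and again at −158, where 0.9355% of all windows hold at least 1 match. The receptor element AGGTCA was found upstream of Nr1d2 (−77), Per1 (−137) and 1 start site of Clock (−119), and at 31 after the second start site of Arntl, against 16.26% of all windows. TGACG was found upstream of Per1, at both of its start sites, Cry1 and Cry2 (20.79% of all windows), while neither TGACGTCA (1.792%) nor TTACGTAA (0.1188%) lay in any of the 13. A match describes letters in these windows and not a bound site.

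The first comparison asked how the clock genes differed between 4 °C and 30 °C. All 10 differed, in WT and in AdC3KO alike: Arntl, Clock, Npas2, Per1, Per2, Cry1 and Nr1d2 were higher at 4 °C, and Per3, Cry2 and Nr1d1 were lower. The largest differences were a 14.2-fold rise of Arntl and an 11.6-fold fall of Per3 in WT. Within each gene pair or family the members parted: Per1 and Per2 rose while Per3 fell, Cry1 rose while Cry2 fell, and Nr1d2 rose while Nr1d1 fell. By the quasi-likelihood test of edgeR with Benjamini-Hochberg adjustment at 0.05, 10 of 10 clock genes were called in WT, where 61.4% of all tested genes were called (30.6% higher and 30.8% lower). In AdC3KO 10 of 10 were called, where 63% of all tested genes were (31% higher and 32.1% lower). For all 10 genes the 4 °C libraries did not overlap those at 30 °C in either genotype, a property of 60.3% of all tested genes in WT and 64.1% in AdC3KO. The median absolute log2 fold change of the 10 was 1.77 in WT and 1.83 in AdC3KO, against 0.70 and 0.73 over all tested genes.

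**Figure D1:**
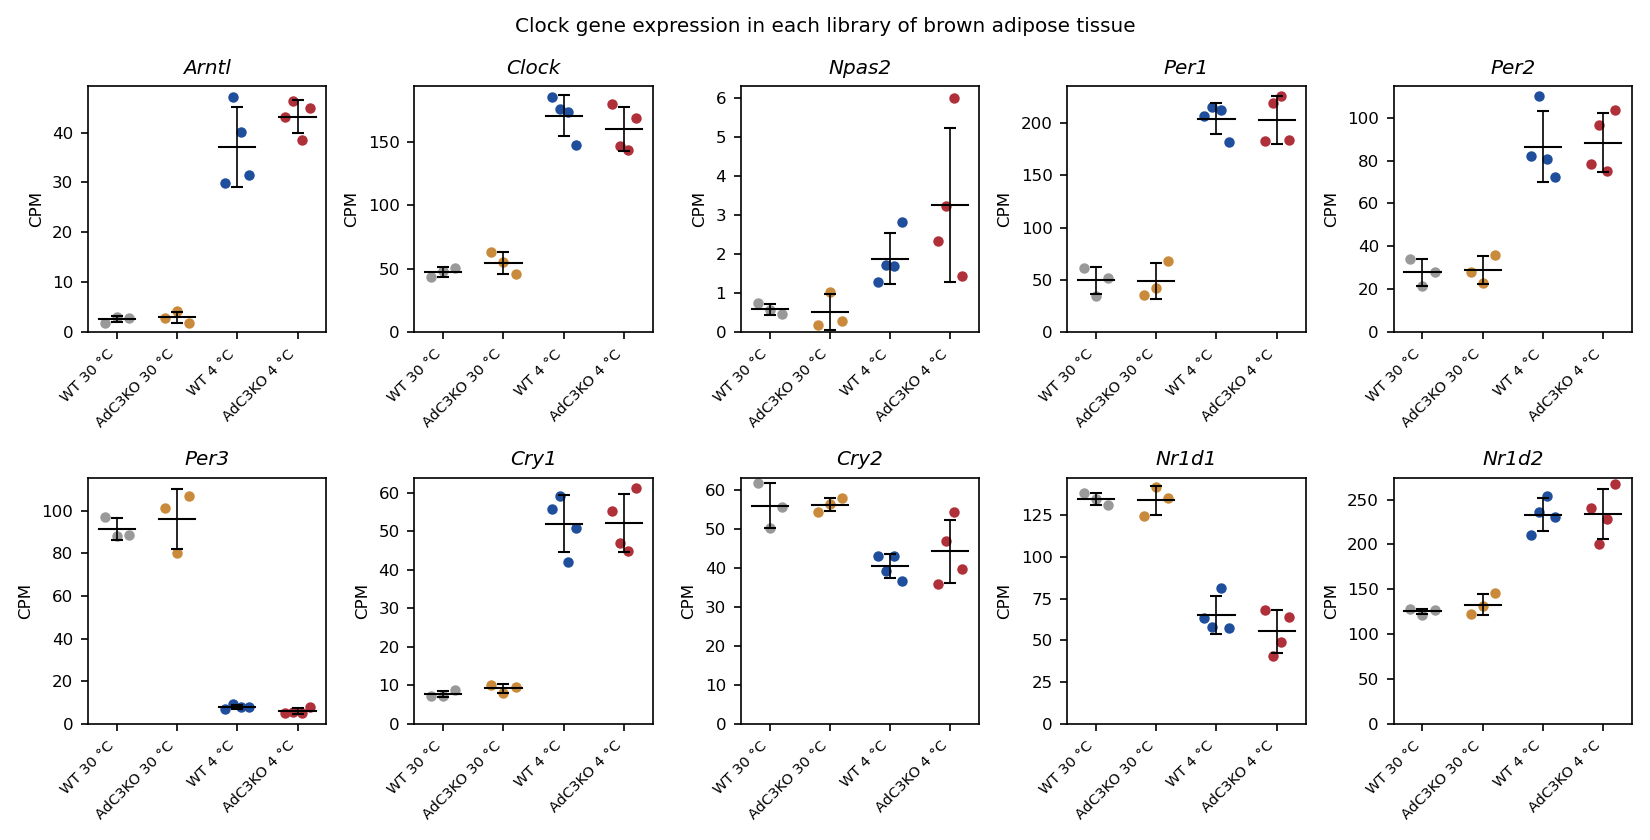
Counts per M (CPM, linear axis from 0) of each of the 10 clock genes in every library, by group. Points are libraries, and bars give the mean and SD. The 4 °C libraries sit above those at 30 °C for 7 genes and below for Per3, Cry2 and Nr1d1, with WT and AdC3KO side by side.

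The activator arm rose. Arntl, which encodes the partner shared by both activator pairs, stood at 1.95, 2.99 and 2.89 CPM in the WT libraries at 30 °C and at 29.9, 47.1, 40.1 and 31.5 CPM at 4 °C. In AdC3KO it stood at 2.85, 4.20 and 1.92 CPM at 30 °C and at 43.0, 46.2, 38.6 and 44.9 CPM at 4 °C. The lowest library at 4 °C was thus far above the highest at 30 °C. The log2 fold change was 3.83 in WT (SE 0.25, adjusted p = 5.86e-09) and 3.85 in AdC3KO (SE 0.24, adjusted p = 4.45e-09), which ranked 326 and 332 by size among the 15949 genes tested. Its counts at 30 °C were few, 204 over the 3 WT libraries and 252 over the 3 AdC3KO libraries, against 3023 and 4082 over 4 libraries each at 4 °C. Without the 5 libraries with muscle transcripts the rise in AdC3KO was 4.53, resting on 1 library at 30 °C that was assumed to vary like the other groups.

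Clock, the usual partner of Arntl, stood at 43.3, 48.6 and 50.3 CPM in WT at 30 °C and at 185.4, 176.0, 173.1 and 147.6 CPM at 4 °C. In AdC3KO the values were 62.8, 55.3 and 45.9 CPM at 30 °C and 179.7, 147.0, 143.8 and 168.4 CPM at 4 °C. The groups were well apart, and the log2 fold change was 1.85 in WT (SE 0.12, adjusted p = 3.26e-09) and 1.55 in AdC3KO (SE 0.12, adjusted p = 1.74e-08). Npas2, which can take the place of Clock, was the scarcest of the 10 per length of exon at 30 °C. It stood at 0.745, 0.559 and 0.457 CPM in WT at 30 °C and at 1.30, 1.73, 1.71 and 2.81 CPM at 4 °C, and in AdC3KO at 0.196, 1.04 and 0.295 CPM at 30 °C and at 2.35, 3.23, 6.01 and 1.43 CPM at 4 °C. The highest AdC3KO library at 30 °C and the lowest at 4 °C nearly met, and the highest library of all was AdC3KO library 3 at 4 °C, the one with the most muscle transcripts (494.1 CPM). The log2 fold change of Npas2 was 1.69 in WT (SE 0.56, adjusted p = 0.0153) and 2.67 in AdC3KO (SE 0.56, adjusted p = 0.000685). The call in WT was lost without WT library 3 at 30 °C (1.54, adjusted p = 0.061), and the rise in AdC3KO was 3.70 without AdC3KO library 2 at 30 °C. Without the 5 libraries with muscle transcripts both rises were still called, at 1.57 in WT and 2.96 in AdC3KO, the latter again with 1 library at 30 °C.

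The period genes, which encode the repressors that pair with the CRY proteins, split. Per1 stood at 61.2, 35.0 and 52.3 CPM in WT at 30 °C and at 206.9, 215.0, 212.7 and 182.1 CPM at 4 °C. In AdC3KO it stood at 35.8, 42.2 and 68.1 CPM at 30 °C and at 182.9, 219.5, 225.4 and 183.9 CPM at 4 °C. Its libraries at 30 °C spread more, in proportion, than those at 4 °C: the coefficient of variation was 26.9% in WT and 35.1% in AdC3KO at 30 °C and 7.39% and 11.2% at 4 °C. Its log2 fold change was 2.04 in WT (SE 0.22, adjusted p = 1.91e-06) and 2.06 in AdC3KO (SE 0.22, adjusted p = 1.66e-06). Without the 5 libraries with muscle transcripts the rise was 2.05 in WT and 1.52 in AdC3KO, the latter with 1 library at 30 °C.

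Per2 stood at 34.0, 21.7 and 28.0 CPM in WT at 30 °C and at 82.2, 110.3, 80.6 and 72.3 CPM at 4 °C. In AdC3KO the values were 28.3, 23.0 and 36.0 CPM at 30 °C and 78.4, 96.4, 75.1 and 103.5 CPM at 4 °C. Every 4 °C library was over the highest 30 °C library, with a log2 fold change of 1.63 in WT (SE 0.20, adjusted p = 5.22e-06) and 1.60 in AdC3KO (SE 0.20, adjusted p = 5.65e-06). Among the AdC3KO libraries at 30 °C, library 3 was highest for Per1, Per2 and Per3 and lowest for Arntl. Among the WT libraries at 30 °C, library 1 was likewise highest for the 3 period genes and lowest for Arntl, a pattern picked out after the values were seen.

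Per3, the period gene that is dispensable for most rhythms, went the other way. It stood at 97.3, 88.0 and 88.7 CPM in WT at 30 °C and at 6.72, 9.38, 7.69 and 7.79 CPM at 4 °C. In AdC3KO it stood at 101.3, 80.3 and 107.1 CPM at 30 °C and at 5.07, 5.43, 4.89 and 8.09 CPM at 4 °C. The libraries at 4 °C reached at most 9.38 CPM and those at 30 °C were at least 80.3 CPM, so the groups were far apart. The log2 fold change was −3.53 in WT (SE 0.16, adjusted p = 9.9e-11) and −4.03 in AdC3KO (SE 0.16, adjusted p = 3.52e-11), which ranked 413 and 291 by size among all tested genes. Per kilobase (kb) of exon, Per3 (9.51 CPM per kb) stood beside Per1 (8.80) in WT at 30 °C, and at 4 °C Per3 (0.822) stood far under Per1 (36.3) and Per2 (14.7). The log2 ratio of Per1 to Per3 within a library moved from −0.92 ± 0.36 (SD, n = 3) to 4.70 ± 0.20 (SD, n = 4) in WT, which was described and not tested.

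The cryptochromes, which encode the stronger repressors of the activator pair, also split. Cry1 stood at 7.21, 7.26 and 8.69 CPM in WT at 30 °C and at 55.9, 59.1, 42.1 and 50.9 CPM at 4 °C. In AdC3KO it stood at 10.2, 7.92 and 9.56 CPM at 30 °C and at 55.4, 47.1, 44.8 and 61.3 CPM at 4 °C. This was the largest rise after that of Arntl in WT, with a log2 fold change of 2.75 (SE 0.15, adjusted p = 5.84e-10), and in AdC3KO it was 2.50 (SE 0.15, adjusted p = 1.17e-09). Cry2 moved least of the 10. It stood at 62.0, 50.4 and 55.8 CPM in WT at 30 °C and at 43.1, 39.3, 43.2 and 36.6 CPM at 4 °C, and in AdC3KO at 54.6, 56.4 and 58.1 CPM at 30 °C and at 36.0, 46.9, 54.4 and 39.9 CPM at 4 °C. In AdC3KO the highest library at 4 °C, library 3, came just under the lowest at 30 °C, and that library had the most muscle transcripts. Without the 5 libraries with muscle transcripts the log2 fold change in AdC3KO was −0.51 (adjusted p = 0.0426), again with 1 AdC3KO library left at 30 °C. The log2 fold change of Cry2 was −0.47 in WT (SE 0.12, adjusted p = 0.0032) and −0.35 in AdC3KO (SE 0.12, adjusted p = 0.0194). The AdC3KO call was lost without AdC3KO library 3 at 30 °C (−0.33, adjusted p = 0.0594), without AdC3KO library 1 (−0.24, adjusted p = 0.101) or 4 (−0.29, adjusted p = 0.0752) at 4 °C, and without the 2 libraries high in interferon genes (−0.24, adjusted p = 0.0788). Cry2 shares 295 bases (4.67% of its exon length) with D930015M05Rik, a transcript on the opposite strand. Reads there may have been miscounted or left out as ambiguous, since the strand setting of the counting is not stated.

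The nuclear receptors of the stabilising loop split as well. Nr1d1 stood at 138.0, 134.6 and 131.0 CPM in WT at 30 °C and at 63.7, 58.0, 81.6 and 57.2 CPM at 4 °C. In AdC3KO it stood at 124.5, 141.6 and 135.3 CPM at 30 °C and at 67.9, 40.7, 48.7 and 64.0 CPM at 4 °C. The libraries at 30 °C were tight, with a coefficient of variation of 2.61% in WT, and all lay above every library at 4 °C. The log2 fold change was −1.05 in WT (SE 0.15, adjusted p = 2.72e-05) and −1.27 in AdC3KO (SE 0.15, adjusted p = 3.54e-06). Nr1d1 shares 263 exon bases (8.55% of its exon length) with Thra, the thyroid hormone receptor gene on the opposite strand, which went from 86.1 to 100.9 CPM at 30 °C to 26.8 to 36.0 CPM at 4 °C. The part of this overlap in the fall of Nr1d1 was not tested.

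Nr1d2, which encodes the closely related receptor REV-ERBβ, stood at 127.8, 121.7 and 126.4 CPM in WT at 30 °C and at 210.2, 236.7, 254.5 and 230.7 CPM at 4 °C. In AdC3KO the values were 122.2, 131.4 and 145.4 CPM at 30 °C and 240.8, 200.4, 228.3 and 267.4 CPM at 4 °C. All 8 libraries at 4 °C were above all 6 at 30 °C. The log2 fold change was 0.90 in WT (SE 0.10, adjusted p = 1.32e-06) and 0.82 in AdC3KO (SE 0.10, adjusted p = 3.36e-06). Within a library the log2 ratio of Nr1d2 to Nr1d1 counts moved from −0.10 ± 0.05 (SD, n = 3) to 1.85 ± 0.20 (SD, n = 4) in WT and from −0.01 ± 0.11 (SD, n = 3) to 2.10 ± 0.21 (SD, n = 4) in AdC3KO, described and not tested.

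**Figure D2:**
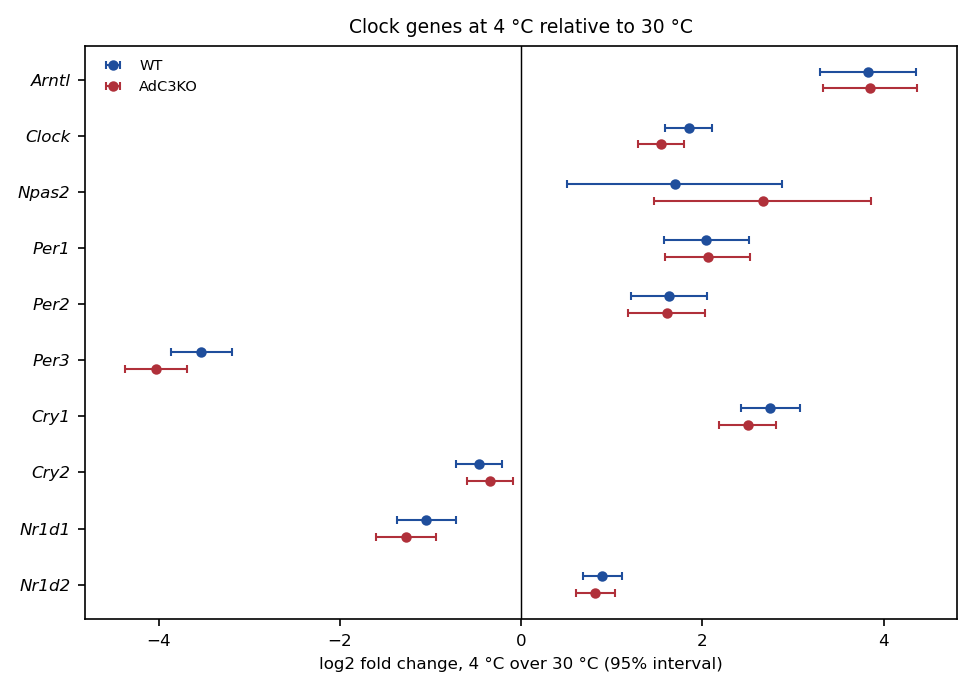
Log2 fold change at 4 °C over 30 °C of each clock gene (x axis, 0 is no difference) in WT and AdC3KO. Points are edgeR estimates and bars their 95% intervals. Both genotypes place 7 genes to the right of 0 and Per3, Cry2 and Nr1d1 to the left, with Arntl at 3.83 and Per3 at −3.53 in WT at the extremes.

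These directions held under each scaling tried, while the scaling moved the size of the differences. Upper-quartile scaling shifted the median over all genes from −0.03 to −0.27 in WT and from −0.06 to −0.29 in AdC3KO. Over all alternatives the log2 fold change in WT ran from −0.71 to −0.39 for Cry2. It ran from 0.65 to 0.93 for Nr1d2 and from 3.59 to 3.93 for Arntl. In bulk tissue a difference in the number of cells of a type and a difference in RNA per cell cannot be told apart. Counts of called markers are to be read against the 61.4% of all tested genes called in WT (30.6% higher, 30.8% lower) and the 63% in AdC3KO (31% higher, 32.1% lower). Brown adipocyte markers went both ways: 6 of 11 were called higher and 4 lower in WT, and 6 and 2 in AdC3KO. Endothelial markers summed to 529.6 to 714.5 CPM at 30 °C and 1149 to 1519 CPM at 4 °C, with 4 of 6 markers called higher and 2 lower in each genotype. Red blood cell markers summed to 244.6 to 384.8 CPM at 30 °C and 326.4 to 622.0 CPM at 4 °C (4 of 5 called higher in WT and 5 of 5 in AdC3KO). Macrophage markers summed to 145.1 to 218.0 CPM at 30 °C and 186.1 to 492.4 CPM at 4 °C (4 of 7 called higher in WT and 3 of 7 in AdC3KO). Schwann cell markers summed to 41.8 to 53.9 CPM at 30 °C and 23.0 to 33.7 CPM at 4 °C (4 of 5 called lower in WT and 3 of 5 in AdC3KO). Fibroblast markers summed to 581.9 to 961.8 CPM at 30 °C and 648.8 to 968.4 CPM at 4 °C, and lymphocyte markers to 3.03 to 4.75 CPM and 0.530 to 5.75 CPM. No muscle or interferon gene of these lists was called in either cold comparison. None of these markers was at 0 throughout a group, and their part in the clock gene differences was not tested.

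Ratios of 2 clock genes within a library do not depend on how libraries are scaled, and 5 such ratios were tested in 4 comparisons, 20 tests in all. The log2 ratio of Arntl to Nr1d1, the activator gene and the gene of its repressor, was −6.13, −5.48 and −5.50 in WT at 30 °C and −1.09, −0.30, −1.02 and −0.86 at 4 °C. In AdC3KO it was −5.44, −5.07 and −6.13 at 30 °C and −0.66, 0.18, −0.34 and −0.51 at 4 °C. The difference of the means was 4.88 in WT and 5.22 in AdC3KO, so counts of Arntl relative to Nr1d1 were 29.5-fold and 37.2-fold higher at 4 °C. The log2 ratio of Cry1 to Cry2 was −2.86 ± 0.22 (SD, n = 3) at 30 °C and 0.35 ± 0.27 (SD, n = 4) at 4 °C in WT, a difference of 3.21, and the difference in AdC3KO was 2.86. The log2 ratio of Arntl to Per2 was 2.19 higher at 4 °C in WT and 2.30 higher in AdC3KO. In each of these 6 cases the groups did not overlap, and the two-sided exact permutation test gave p = 0.0286, the smallest that 4 libraries against 3 allow. After Benjamini-Hochberg adjustment over the 20 tests it was 0.0952, so none of the ratios passed. With p at its smallest in all 6, this value followed from the numbers of libraries and tests, not from the size of the differences. The log2 ratio of Per1 to Per2 was 0.44 higher in WT (p = 0.0571, exact permutation test) and 0.49 higher in AdC3KO (p = 0.114, exact permutation test). The WT groups did not overlap for it, and the AdC3KO groups did. The ratio of Npas2 to Clock differed by −0.22 in WT (p = 0.571) and 1.24 in AdC3KO (p = 0.2) by the same exact permutation test.

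Levels of different genes were compared as CPM per kb of exon, which divides by the joined length of all annotated exons of a gene. The transcripts expressed can be shorter than that, so the order between genes and their shares depend on this choice of length. At 30 °C in WT the order was Nr1d1 (43.7 CPM per kb), Nr1d2 (23.2), Per3 (9.51), Cry2 (8.87), Per1 (8.80), Per2 (4.76), Clock (3.45), Cry1 (2.31), Arntl (0.347) and Npas2 (0.123). Neighbours in this order did not overlap between libraries, except that Per3 overlapped Cry2 and Cry2 overlapped Per1. In AdC3KO at 30 °C the order was the same, and Per2 and Clock overlapped too. At 4 °C in WT the order was Nr1d2 (43.1 CPM per kb), Per1 (36.3), Nr1d1 (21.2), Cry1 (15.6), Per2 (14.7), Clock (12.4), Cry2 (6.42), Arntl (4.94), Per3 (0.822) and Npas2 (0.394). Here Cry1 overlapped Per2, Per2 overlapped Clock, and Cry2 overlapped Arntl. In AdC3KO at 4 °C the order differed only in its last places, where Npas2 (0.68 CPM per kb) and Per3 (0.611) overlapped. In AdC3KO at 4 °C the pairs Nr1d2 and Per1, Nr1d1 and Cry1, Cry1 and Per2, Per2 and Clock, and Cry2 and Arntl overlapped too.

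**Figure D3:**
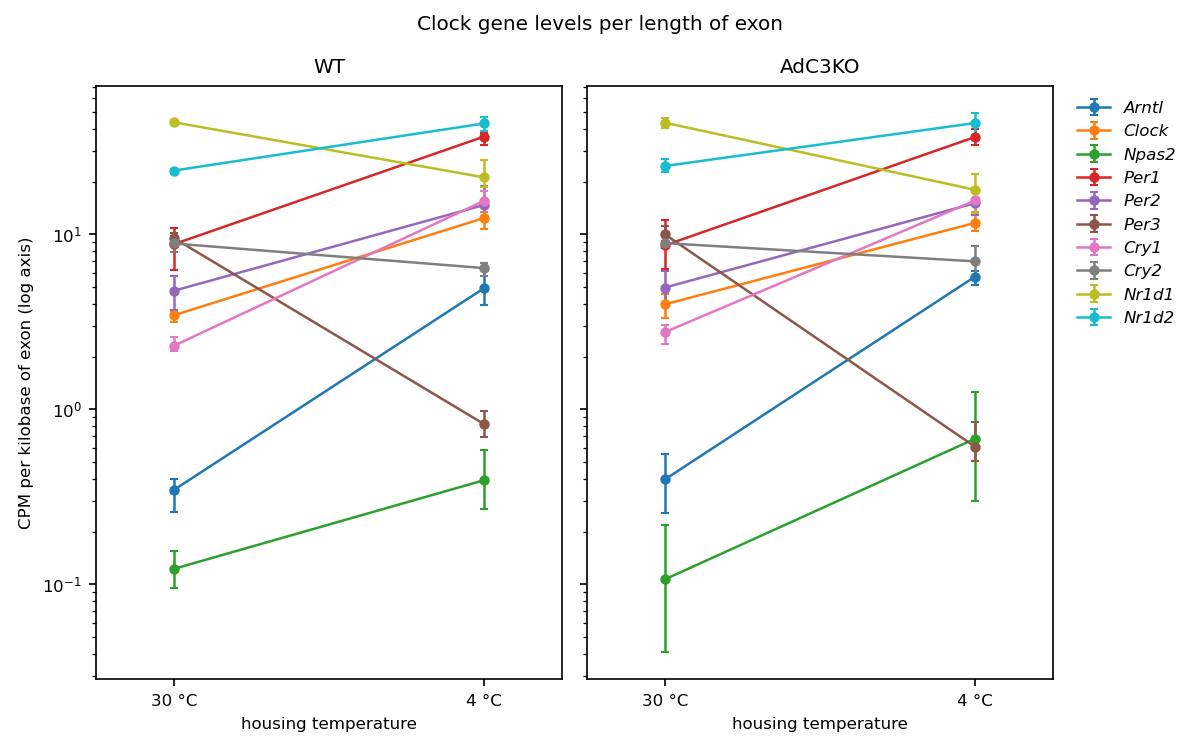
Mean CPM per kb of exon (log axis) of the 10 clock genes at 30 °C and 4 °C, in WT (left) and AdC3KO (right). Bars span the lowest to the highest library. The lines of Arntl and Cry1 climb and that of Per3 drops through the others, and in WT Nr1d2 (43.1) replaces Nr1d1 (43.7) at the top.

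Summed over the 10 genes the level was 105.1 ± 5.65 CPM per kb at 30 °C (SD, n = 3) and 155.8 ± 9.93 at 4 °C (SD, n = 4) in WT, and 107.9 ± 7.39 (SD, n = 3) and 153.7 ± 8.19 (SD, n = 4) in AdC3KO. The make-up of that sum moved more than its size. Nr1d1 made up 41.7% of it in WT at 30 °C and 13.6% at 4 °C, and Per3 9.05% and 0.527%. Per1 made up 8.31% at 30 °C and 23.3% at 4 °C, Cry1 2.21% and 10.0%, and Arntl 0.333% and 3.15%. In AdC3KO the share of Nr1d1 was 40.4% and 11.6%, that of Per1 7.92% and 23.6% and that of Per3 9.29% and 0.395%.

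The second comparison asked whether loss of CLSTN3B in adipocytes went with different clock gene levels at either temperature. No clock gene was called. By edgeR 0 of 10 passed at 30 °C, where 0.0439% of all tested genes did, and 0 of 10 at 4 °C, where 0.0502% did. None of the 10 had an unadjusted p below 0.05 at 30 °C, and 1 (Per3) had at 4 °C, against 212 and 765 of all 15949 genes. DESeq2 called none of the 10 at either temperature. The libraries of WT and AdC3KO overlapped for all 10 genes at both temperatures, where 7.29% of all tested genes did not overlap at 30 °C and 2.27% at 4 °C.

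At 30 °C the log2 fold change of AdC3KO over WT ranged from −0.21 (Npas2, SE 0.62) to 0.26 (Cry1, SE 0.15), with an adjusted p of 1 for each by edgeR. Leaving Npas2 aside, whose 95% interval ran from −1.52 to 1.11, the intervals lay between −0.50 (Per1) and 0.74 (Arntl). At 4 °C the log2 fold change ranged from −0.43 (Per3, SE 0.16) to 0.77 (Npas2, SE 0.46), with an adjusted p by edgeR between 0.963 and 0.999. The intervals of the other 8 lay between −0.54 (Nr1d1) and 0.61 (Arntl), and that of Npas2 ran from −0.21 to 1.75. A p that misses the threshold does not show equal levels, and these intervals give the sizes of difference that the libraries allow. In counts simulated at these depths, edgeR recovered 9% of genes changed 1.5-fold and 68.7% of those changed 2-fold at 30 °C (15400 genes tested), and 16.4% and 85.1% at 4 °C (15377 genes tested). Every simulated gene was given the same biological coefficient of variation, 0.2. The clock genes differ in their spread, so these shares do not describe any 1 of them. Each simulated comparison held 67 genes changed 1.5-fold, 67 changed 2-fold and 66 changed 4-fold. In the data 7 genes were called at 30 °C and 8 at 4 °C. Adjustment over all genes is milder when more genes differ, so the shares can be too high for these comparisons.

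Per3 at 4 °C was the clock gene furthest from 0 relative to its error. The group mean was 7.90 ± 1.10 CPM for the WT libraries, whereas the AdC3KO libraries had a mean of 5.87 ± 1.50 CPM (SD, n = 4 each), and 3 of the 4 AdC3KO libraries (5.07, 5.43 and 4.89 CPM) lay below every WT library. The remaining one, library 4 at 8.09 CPM, lay above all WT libraries but library 2. The unadjusted p was 0.0143 and the adjusted p 0.963 by edgeR, so it did not pass. Without AdC3KO library 4 the log2 fold change was −0.61 and the adjusted p 0.214. With each library left out in turn it ran from −0.61 to −0.31 and never passed.

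**Figure D4:**
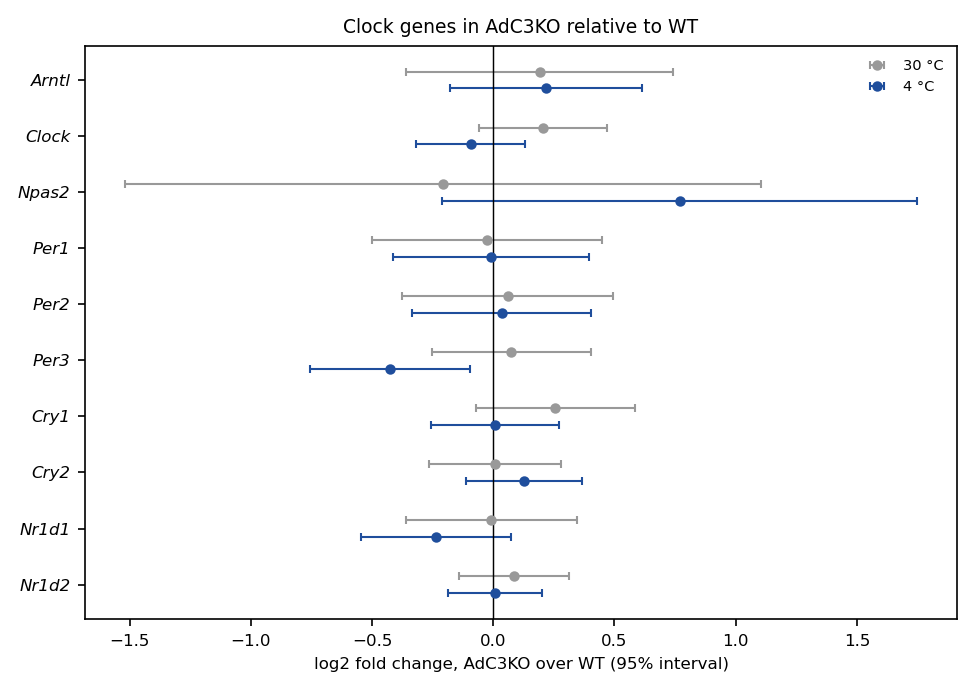
Log2 fold change of AdC3KO over WT for each clock gene (x axis, 0 is no difference) at 30 °C and 4 °C. Points are edgeR estimates and bars their 95% intervals. The intervals span 0 except that of Per3 at 4 °C, which runs from −0.76 to −0.10 before adjustment, and those of Npas2 are the widest.

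The difference between the cold responses (AdC3KO minus WT, the interaction) was called for 0 of 10 clock genes and for 0% of all tested genes by edgeR, with 349 genes at an unadjusted p below 0.05 and 0 called by DESeq2. It was largest for Npas2 at 0.98 (SE 0.77) and lowest for Per3 at −0.50 (SE 0.22), the one clock gene with an unadjusted p below 0.05 (0.0363, edgeR, adjusted p = 1). Clock followed at −0.30 (SE 0.16), and Arntl, Per1 and Per2 were between −0.03 and 0.03. Without AdC3KO library 4 at 4 °C the interaction of Per3 was −0.67, and with each library left out in turn it ran from −0.67 to −0.37. In the simulated counts a 2-fold interaction was recovered for 34.3% of genes and a 4-fold one for 100% (15382 genes tested).

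Genes related to the clock were followed in 7 lists, of its regulators, its outputs and genes that carry signals to it. The lists were chosen with earlier results of these data known. Counts in these lists are to be read against all tested genes, of which 30.6% were called higher and 30.8% lower in WT and 31% and 32.1% in AdC3KO, with a median absolute log2 fold change of 0.70 and 0.73. Rora, which encodes an activator of Arntl that competes with the REV-ERB receptors, went from 18.0 to 49.7 CPM in WT (log2 fold change 1.46) and rose by 1.17 in AdC3KO. Hdac3, the deacetylase that REV-ERB recruits through its corepressors, fell by 0.70 in WT and 0.81 in AdC3KO. The corepressor gene Ncor1 was called in WT (0.38) and had 0.17 in AdC3KO (SE 0.12), where it was not called. Over all genes the median in WT was −0.03.

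Of 12 kinases and ubiquitin enzymes that act on PER and CRY proteins, 8 were higher and 3 lower in WT and 9 and 3 in AdC3KO, with a median of 0.51 and 0.57. Their median absolute log2 fold change, 0.69 and 0.68, was close to that of all tested genes. Btrc and Fbxw11 encode the paired F-box proteins that mark PER for degradation, and they moved in opposite directions: Btrc fell by 1.29 in WT and 1.45 in AdC3KO, and Fbxw11 rose by 1.28 and 1.19. Fbxl21, a cryptochrome ligase gene with at most 1.08 CPM in any library, fell by 2.06 and 1.65. Gsk3a, a kinase of clock proteins, rose by 0.97 in each genotype.

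Among 6 other regulators, 4 were lower and 2 higher in both genotypes. Bhlhe40 encodes a repressor that competes for E-boxes, and it went from 132.2 to 16.6 CPM in WT (a log2 fold change of −2.98 with SE 0.32 and adjusted p = 5.78e-06) and from 119.8 to 20.2 CPM in AdC3KO (−2.57, SE 0.32, adjusted p = 1.78e-05). Arntl2, the paralog of Arntl, fell by 1.64 in WT and 1.51 in AdC3KO while Arntl rose. Timeless fell by 1.51 and 1.88, and Ciart, a repressor of the activator pair, rose by 1.49 and 1.41.

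The PAR bZIP genes and Nfil3, which act through D-boxes and are direct outputs of the loop, gave 1 gene higher and 3 lower in each genotype. Dbp, a classic E-box target, went from 62.5 to 6.86 CPM in WT (a log2 fold change of −3.18 with SE 0.22 and adjusted p = 1.44e-08) and from 64.1 to 5.89 CPM in AdC3KO (−3.44, SE 0.22, adjusted p = 6.64e-09). Nfil3, a D-box repressor that REV-ERB represses, went from 7.92 to 74.6 CPM in WT and from 9.11 to 91.1 CPM in AdC3KO. Hlf fell by 1.31 and 1.66, and Tef by 0.33 and 0.43.

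Of 8 genes that oscillate in many peripheral tissues, 7 were higher and none was lower in each genotype, and Wee1 was not called (−0.32, SE 0.19 in WT and 0.10, SE 0.19 in AdC3KO). Cdkn1a, the cell cycle inhibitor gene, rose by 4.31 in WT and 3.87 in AdC3KO. Fkbp5, a target of the glucocorticoid receptor, rose by 3.61 and 2.98, Lonrf3 by 3.20 and 3.15, and Tsc22d3, another glucocorticoid target, by 0.87 and 0.84. Several of these genes respond to hormones and stress as well as to the clock.

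Of 8 genes that carry cyclic AMP, glucocorticoid and heat shock signals to the Per genes, 5 were higher and 1 lower in each genotype, and their median absolute log2 fold change of 0.54 in WT and 0.59 in AdC3KO was below that of all tested genes. Sik1, a kinase induced by cyclic AMP, went from 10.5 to 178.1 CPM in WT (a log2 fold change of 4.08 with SE 0.22 and adjusted p = 1.64e-09) and from 9.92 to 192.5 CPM in AdC3KO (4.28, SE 0.22, adjusted p = 1.13e-09). Crem, whose products include a cyclic AMP-induced repressor, rose by 1.91 and 2.17. Crtc2, a coactivator of CREB, rose by 0.65 and 0.66, and Crtc1 fell by 0.59 in each genotype. Of 5 RNA-level regulators of the clock, 3 were higher and 1 lower in each genotype: the cold-inducible RNA-binding protein genes parted, Cirbp falling by 1.57 and 1.78 and Rbm3 rising by 0.97 and 1.08, while Sfpq rose by 0.73 and 0.56. The genes called higher differed by genotype: Nono was called in WT (0.23) and was at 0.21 in AdC3KO (adjusted p = 0.0518, edgeR), and Mettl3 was at 0.21 in WT (adjusted p = 0.186) and was called in AdC3KO (0.48, adjusted p = 0.00488). The interaction passed for neither. By edgeR no gene of the 7 lists was called between the genotypes at either temperature or in the interaction, and 5 gave an unadjusted p below 0.05 in 1 of those comparisons (Cdkn1a and Fkbp5 at 30 °C, Hlf, Usp2 and Crem at 4 °C). Over all 15949 genes 212 did so at 30 °C, 765 at 4 °C and 349 in the interaction.

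**Figure D5:**
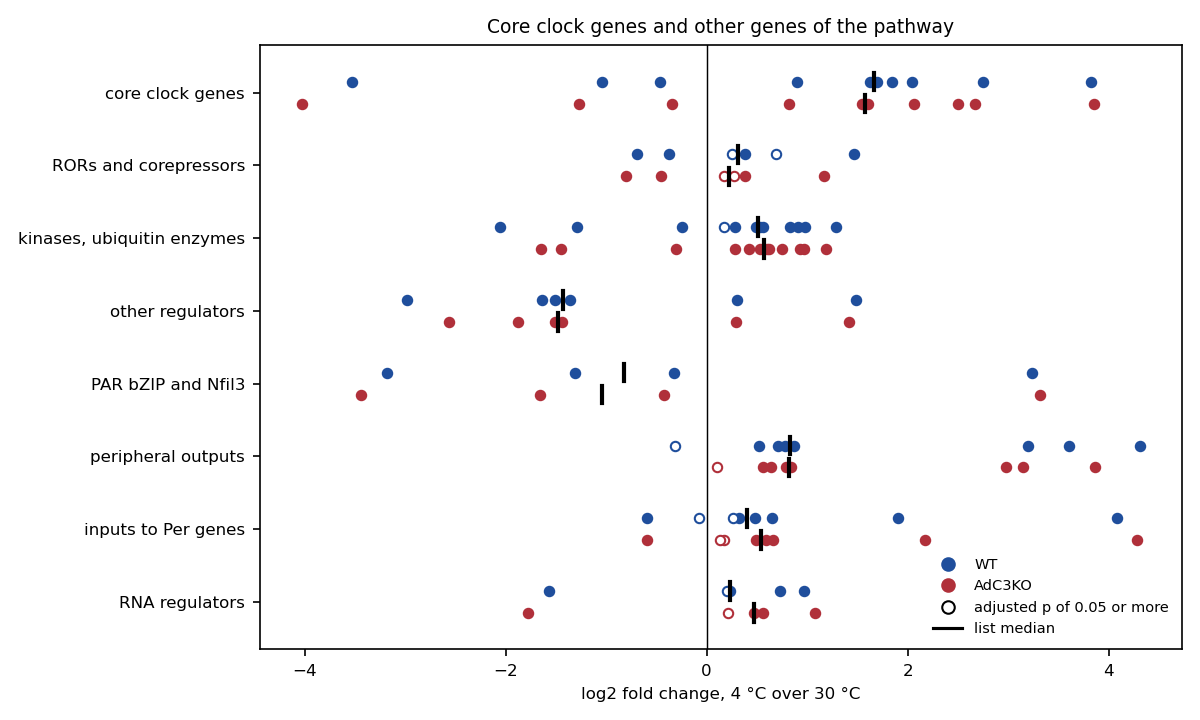
Log2 fold change at 4 °C over 30 °C of each gene of the clock list and the 7 lists of related genes, in WT and AdC3KO. Filled points passed the edgeR test, open points did not, and the black bars are list medians. The D-box factors spread from −3.44 (Dbp in AdC3KO) to 3.32 (Nfil3 in AdC3KO), and most peripheral outputs lie to the right of 0.

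Other genes were ranked by how closely their library-to-library variation followed that of each clock gene, as Pearson's r of log2 CPM deviations from the 4 group means over the 14 libraries, among 9678 other genes of at least 5 CPM. The nearest were Gzf1 for Arntl (r = 0.902), Rnf24 for Clock (0.936), Adam15 for Npas2 (0.88), Dusp8 for Per1 (0.939), Tanc1 for Per2 (0.921), C1qtnf9 for Per3 (0.926), Ccdc186 for Cry1 (0.871), Pola2 for Cry2 (0.94), Setd3 for Nr1d1 (0.858) and Sh2b1 for Nr1d2 (0.916). In second place were Pip4p2 (0.889), Ipo5 (0.92), Lpar6 (0.866), Magi1 (0.893), Adgrl4 (0.88), Map3k11 (0.886), Xpo1 (0.854), Pde7b (0.933), Patl1 (0.822) and Nfib (0.908), in the same order. Each is the highest or second-highest of 9678 values, over libraries that share depth and scaling, so it is a description. No clock gene was searched as a neighbour of another.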

How the data were processed

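RNA from mouse BAT was sequenced in 14 libraries. The authors deposited whole-number read counts per Ensembl gene, not normalised, as 1 table of the 14 libraries. Reads were trimmed with Trimmomatic, inspected with FastQC, aligned to GRCm38/mm10 with STAR and counted with HTSeq, per the submitters' processing notes. The sources used here do not give their versions, the annotation release or the strand setting. The 5 summary lines that name no gene were left out (reads outside genes 5.95% to 8.19%, ambiguous reads 5.53% to 6.03%). The GENCODE M21 annotation of GRCm38 named 55144 identifiers (99.41%) and gave exon lengths.

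Counts were fitted with edgeR 4.0.16 in R 4.3.3: filterByExpr with a minimum count of 10, TMM scaling, 1 robust quasi-likelihood fit of 4 group means, and Benjamini-Hochberg adjustment at 0.05 over 15949 genes. CPM carry the TMM factors. Ratios used counts plus 0.5 and an exact permutation test (scipy 1.17.1). The edgeR step was tested on simulated data. Depth was 19.9 M to 29.0 M gene counts per library, and chi-square per degree of freedom within groups was 16.9 to 83.6, so no 2 libraries agreed within sampling noise. Alternatives were RLE and upper-quartile scaling, DESeq2 1.42.0, other filters, fits of only the groups compared, a replicate block, leaving out each library, and leaving out libraries with muscle or interferon transcripts.

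The 10 clock genes and the lists of related and marker genes were chosen with earlier results of these data known. The naming rule gave all 10 clock genes in every comparison, up to 4 called genes of each related list with the largest change in WT, and the 2 genes nearest to each clock gene. Other named genes were chosen after their values were seen. Part of the list of receptors and corepressors is not reported here.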

Additional observations from a re-analysis of the deposited data

Results flagged for a closer look

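Among 30 groups of 4 libraries examined for 1 library far from the others (10 clock genes and 5 ratios, at 4 °C in each genotype), 2 held such a library, where chance gives about 1 in 20. Per3 in AdC3KO at 4 °C was 8.09 CPM in library 4 against 4.89 to 5.43 CPM in the other 3. The log2 ratio of Per1 to Per2 in WT at 4 °C was 0.96 in library 2 against 1.33 to 1.40 in the other 3, and library 2 also held the highest Per2 value of that group (110.3 CPM).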

How the results depend on the processing

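All 458 recomputed values of the 20 cold responses of clock genes kept their direction, and 453 kept their call. The 5 that lost it were Npas2 in WT and 4 of Cry2 in AdC3KO, given with their libraries beside the results. The number of clock genes called was 9 or 10 in every setting of either cold comparison. It was 9 with a filter at 5 CPM, which leaves out Npas2. In the genotype and interaction comparisons none of 677 values passed. Of all tested genes, the count called between genotypes was 4 with a filter at 5 CPM at 30 °C, 22 by DESeq2 and 5 with only the groups compared at 4 °C, and 4 to 7 at 30 °C when each library was left out in turn (4 without WT library 1 or 3 at 30 °C). Without the 5 libraries with muscle transcripts it was 2 at 30 °C and 3 at 4 °C, and 6589 for cold in AdC3KO, where fewer libraries entered.

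The replicate numbers are not stated to pair libraries. Same-numbered libraries of different groups correlated between −0.40 and 0.31 in their deviations, and differently numbered ones between −0.33 and 0.65. These correlations cannot show whether libraries were paired, since they also carry every other difference between libraries. With a replicate block the cold counts were 9437 in WT and 9789 in AdC3KO, with 10 clock genes called in each, and 6 and 9 genes were called between genotypes at 30 °C and 4 °C. No paired analysis was made for the ratios because the numbers are not stated to pair libraries.

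Signs turned only among differences between genotypes, cold ratios and interactions that had not passed. These were, at 4 °C, Per1 at 0.0006 with upper-quartile scaling, and Cry1 at −0.0008 with a filter at 5 CPM and −0.0025 with the replicate block, and, at 30 °C, Cry2 at −0.0022 with only the groups compared. Without the libraries with muscle transcripts they were Arntl −0.36, Clock −0.0025 and Per1 0.50 at 30 °C, Cry2 −0.0020 at 4 °C, and Per1 −0.54 and Cry2 −0.0483 in the interaction. The ratios there were Arntl to Nr1d1 −0.32, Per1 to Per2 0.15 and Arntl to Per2 −0.73 at 30 °C and Cry1 to Cry2 0.15 at 4 °C. Without the libraries high in interferon genes they were Cry2 −0.0086 at 30 °C, Cry1 −0.0307 and Nr1d2 −0.0097 at 4 °C and Arntl −0.0279 in the interaction. With each library left out in turn, the 30 °C difference ran from −0.34 to 0.16 for Per1, −0.0494 to 0.04 for Nr1d1, −0.12 to 0.23 for Per2, −0.0626 to 0.0867 for Cry2, −1.24 to 0.19 for Npas2, −0.13 to 0.43 for Arntl and −0.0069 to 0.19 for Per3. At 4 °C it ran from −0.0613 to 0.0527 for Per1, −0.0553 to 0.094 for Nr1d2, −0.084 to 0.0965 for Cry1 and −0.0447 to 0.19 for Per2. The interaction ran from −0.16 to 0.33 for Per1, −0.21 to 0.34 for Arntl, −0.19 to 0.15 for Per2 and −0.13 to 0.0169 for Nr1d2. Ratios ran from −0.0813 to 0.45 (Arntl to Nr1d1, 30 °C), −0.35 to 0.54 (Arntl to Per2, 30 °C), −0.20 to 0.085 (Per1 to Per2, 30 °C), −0.24 to 0.0662 (Cry1 to Cry2, 4 °C), −0.18 to 0.0743 (Per1 to Per2, 4 °C) and −0.49 to 0.0291 (Npas2 to Clock, cold in WT). The cause was not tested. Few counts limit the precision for Npas2, at under 1.1 CPM at 30 °C.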
